A study of Mus musculus with 2 samples.

Results

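The transcription factors that set the balance between progenitor and thymocyte programs were examined as a set of 10 genes in newborn mouse thymus. The set held the E protein genes Tcf3, Tcf12 and Tcf4, the Id genes Id1, Id2 and Id3, the Ikaros family genes Ikzf1 and Ikzf3, and Runx1 and Myb. It was chosen by gene name, and all 10 were found by gene identifier among the 43346 mouse genes in the deposited tables. The study sequenced 2 libraries, each made with a Smart-seq protocol from 13 pg of total RNA of whole thymus on postnatal day 0, an amount listed as 1 cell-equivalent. Both came from pups of strain B6NCrl, for which no treatment is listed, 1 from pup 6 (replicate 1) and 1 from pup 7 (replicate 2), and both pups are listed under the same donor. The assay is called single cell RNA-seq in the labels, but the material listed is RNA of tissue and not a sorted cell. There was 1 group, so no condition was compared and no p-value is given. Differences between the libraries are descriptions of those libraries, and the spread may be technical.

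E proteins are basic helix-loop-helix (bHLH) factors that bind E-box DNA as dimers and drive T-cell receptor gene rearrangement and thymocyte differentiation. Id proteins have the helix-loop-helix but no basic region, so an E protein held by an Id protein cannot bind DNA. Ikaros, the product of Ikzf1, is a zinc finger protein that recruits the NuRD chromatin remodelling complex and restrains proliferation of thymocytes. Runx1 binds DNA with its partner Cbfb and is required at the early and double-positive stages. Myb is needed for the survival and rearrangement of double-positive thymocytes.

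Each library was deep for its input. Counts on mouse genes came to 25999043 in replicate 1 and 31902773 in replicate 2, and 10275 and 11764 mouse genes had at least 1 expected count. Spike-in RNA took 3.72% and 3.27% of all counts. Levels below are in TPM, transcript abundance corrected for length and rescaled to a total of 1000000 over mouse genes, and a read count is the estimated count of reads assigned to a gene, which need not be whole. All 10 markers of the T lineage were read in both libraries, with summed levels of 16237 and 15828 TPM. In RNA of whole tissue, fewer cells of a type and less RNA per cell cannot be told apart.

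Of the 10 factors, 8 were read in both libraries, Ikzf3 in replicate 1 and Id1 in neither. Among mouse protein-coding genes read in either library, 62.4% were read in both. Id3 stood at the head of the set in both libraries, and in TPM Ikzf1 held place 3 in both. In replicate 2 that place depended on the estimated transcript lengths, which differed between libraries. With 1 length per gene for both libraries, Ikzf1 (119 TPM) stood above Myb (89.6 TPM) and Tcf12 (80.1 TPM) there. By mean level the order was Id3, Myb, Ikzf1, Tcf12, Tcf3, Tcf4, Id2, Runx1, Ikzf3 and Id1. Of the 9 pairs of neighbours in that order, 2 had ranges that did not overlap, Id3 above Myb and Runx1 above Ikzf3. The other 7 did not differ beyond their spread. Over all 45 pairs of factors, 30 had ranges apart. The 10 genes together made up 831 TPM in replicate 1 and 1041 TPM in replicate 2, from 46966 and 43483 counts.

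**Figure D1:**
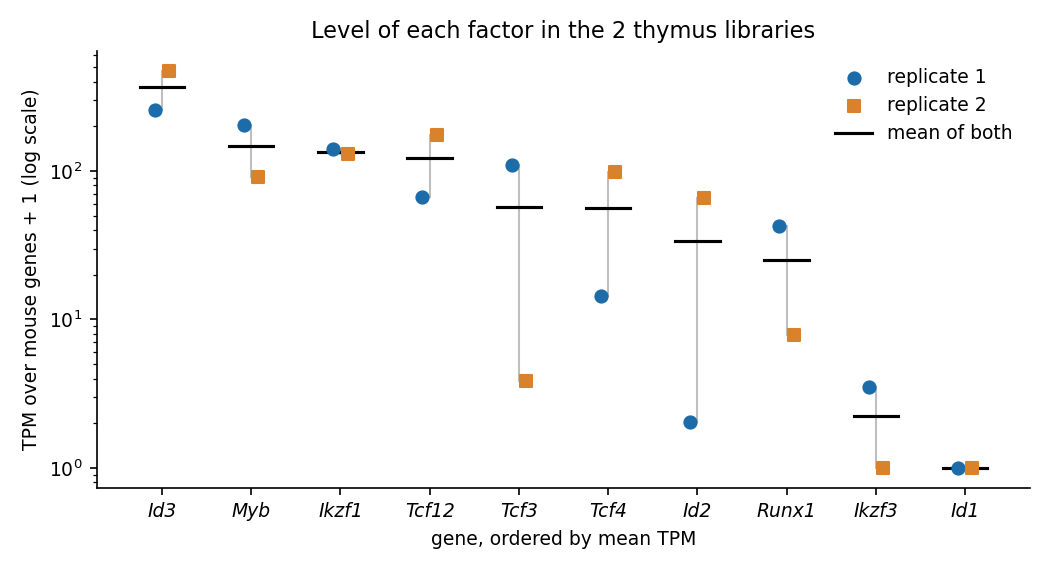
Level of each of the 10 factors in each library, as TPM over mouse genes plus 1 on a log axis, with the mean of both libraries as a bar. Ikzf1 lay at nearly the same level in both libraries by TPM, whereas Tcf3 and Id2 were far apart and in opposite directions.

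Tcf3 encodes E2A, the founding E protein. It lies on chromosome 10 from 80409514 to 80433647 on the minus strand (GRCm38). Its last coding exons hold a pair of mutually exclusive exons, each encoding a bHLH domain, and the choice between them gives the products known as E12 and E47. The exons are shown because the 2 libraries differed in which of them was in the transcripts to which reads were assigned. They are given from the coding strand, and capitals mark the bases that are the same in both exons after alignment. The upstream exon spans chr10:80412827-80413062 and the downstream exon chr10:80410398-80410624.
Tcf3 upstream bHLH exon: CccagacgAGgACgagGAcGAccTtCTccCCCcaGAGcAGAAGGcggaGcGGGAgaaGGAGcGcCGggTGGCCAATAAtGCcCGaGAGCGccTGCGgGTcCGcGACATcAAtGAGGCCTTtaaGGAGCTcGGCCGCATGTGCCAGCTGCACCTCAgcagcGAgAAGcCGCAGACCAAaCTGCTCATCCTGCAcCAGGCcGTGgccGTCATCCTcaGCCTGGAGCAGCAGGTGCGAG
Tcf3 downstream bHLH exon: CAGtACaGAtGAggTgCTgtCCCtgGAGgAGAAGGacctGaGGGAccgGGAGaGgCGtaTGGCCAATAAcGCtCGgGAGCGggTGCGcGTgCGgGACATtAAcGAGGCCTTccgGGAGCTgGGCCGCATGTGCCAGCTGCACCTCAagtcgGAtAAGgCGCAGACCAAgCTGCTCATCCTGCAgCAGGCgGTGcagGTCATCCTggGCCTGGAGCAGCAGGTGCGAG
The alignment paired 227 positions, of which 175 (77.1%) held the same base.

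Tcf3 was at 109 TPM in replicate 1 and 2.87 TPM in replicate 2, from 4500 and 174 counts. Its mean was 55.8 ± 74.9 TPM (SD, n = 2), and the level in replicate 1 was 37.9 times that in replicate 2. It was thus a major E protein transcript in replicate 1 and a minor one in replicate 2. Transcripts with the upstream bHLH exon took 96.5% of the Tcf3 TPM in replicate 1 (4295 counts) and 0% in replicate 2 (0 counts). Transcripts with the downstream exon took 3.30% in replicate 1 (202.5 counts) and 100% in replicate 2 (174 counts). Transcripts with the downstream exon were therefore assigned similar numbers of reads in both libraries, while those with the upstream exon were assigned reads in replicate 1 alone. These counts cover whole transcripts, and reads over the exons themselves were not counted. In replicate 1 the leading transcripts were Tcf3-206 at 44.9 TPM, the noncoding Tcf3-212 at 40.3 TPM and Tcf3-210 at 19.8 TPM. In replicate 2 they were Tcf3-208 at 1.59 TPM and Tcf3-205 at 1.27 TPM. The deposited TPM intervals of these 2, whose level is not listed, overlapped in replicate 2, so their order is not settled. That of Tcf3-210 in replicate 1 was wide, from 0.0003 to 16.5 TPM before rescaling. Tcf3-205 was the one read in both, at 0.695 TPM in replicate 1, where Tcf3-209 was at 2.90 TPM. Coding transcripts made up 62.7% of the gene's TPM in replicate 1 and 100% in replicate 2.

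Tcf12 encodes HEB, the E protein that is the usual partner of E2A in thymocytes. It lies on chromosome 9 from 71842688 to 72111871 on the minus strand. A small exon of 72 bases (24 codons) at chr9:71868999-71869070 is kept in some transcripts and skipped in others. It is shown because its share differed more between the libraries than that of any other Tcf12 feature examined, and it is printed in lower case throughout since no part of it is singled out.
Tcf12 small coding exon: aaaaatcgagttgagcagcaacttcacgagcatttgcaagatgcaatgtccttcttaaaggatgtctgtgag

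Tcf12 was at 66.0 TPM in replicate 1 and 175 TPM in replicate 2, with a mean of 120 ± 77.1 TPM (SD, n = 2). Its read counts ran the other way, with 7989 in replicate 1 and 7163 in replicate 2, or 307 and 225 CPM (counts scaled to a total of 1000000 over mouse genes). The estimated mean transcript length was 6025 bases in replicate 1 and 1872 bases in replicate 2, and TPM divides by that length. With 1 length per gene for both libraries the levels were 102 and 80.1 TPM, so the direction of the Tcf12 difference depended on the transcripts to which its reads were assigned. In replicate 1, Tcf12-202, a coding transcript of 6299 bases, held 79.8% of the gene's TPM. In replicate 2, Tcf12-202 was at 0, and Tcf12-215, a coding transcript of 1522 bases that begins inside the gene, led with 33.0%. The small exon was kept in transcripts with 99.2% of the TPM in replicate 1 and 5.26% in replicate 2. Transcripts that skip it held 0.551% and 53.0%, and those that cover neither junction 0.227% and 41.8%. Transcripts from the upstream start, at position 72111847, took 80.1% in replicate 1 and 62.5% in replicate 2. Those from internal starts near position 71896089, of the kind that gives the shorter form of HEB, took 19.9% and 35.3%. Transcripts of both kinds of start were thus assigned reads in both libraries. In replicate 1 the internal kind had 1303 counts, of which 757 were on the retained intron transcript Tcf12-217. Of its coding transcripts, Tcf12-207 had 535 counts in replicate 1 and 0 in replicate 2, and Tcf12-215 had 10.7 and 1899. Coding transcripts held 89.8% of the Tcf12 TPM in replicate 1 and 58.3% in replicate 2, the rest in replicate 2 being mainly Tcf12-211, annotated for nonsense-mediated decay, at 36.6 TPM and the retained intron transcript Tcf12-219 at 17.5 TPM. Tcf12-219 and another retained intron transcript, Tcf12-217 (6.57 and 4.04 TPM), were read in both libraries. Among those with 10 or more counts in a single library, the coding Tcf12-207 was at 6.22 TPM in replicate 1. In replicate 2 the coding transcripts Tcf12-208, Tcf12-221, Tcf12-210, Tcf12-218 and Tcf12-216 ranged from 27.0 TPM for the first to 2.41 TPM for the last, and Tcf12-204 and Tcf12-205, annotated for decay, were at 10.99 and 3.77 TPM. The reads of replicate 2 were thus spread over more and shorter Tcf12 models.

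Tcf4 encodes E2-2, the E protein best known as the master regulator of plasmacytoid dendritic cells. It lies on chromosome 18 from 69343356 to 69689079 on the plus strand. It was at 13.4 TPM in replicate 1 and 97.8 TPM in replicate 2, from 1951 and 5087 counts, with a mean of 55.6 ± 59.7 TPM (SD, n = 2). Replicate 2 was higher by both measures, by 7.31 times in TPM, while its counts were 75.0 and 159 CPM. The estimated length was 7235 bases in replicate 1 and 2352 bases in replicate 2. All of the Tcf4 TPM of replicate 1 came from transcripts of the upstream start, led by Tcf4-202 with 65.4%. In replicate 2 these transcripts held 40.5%, and those of an internal start held 59.5%, led by Tcf4-204 with 55.0%. Of the upstream forms Tcf4-205 was the most abundant there, at 26.4 TPM, above Tcf4-201 at 7.66 TPM and Tcf4-210 at 3.07 TPM, and Tcf4-203, an internal form, was at 4.41 TPM. Tcf4-207 was read in both libraries, at 4.63 and 2.40 TPM. Transcripts of the internal start were assigned 0 counts in replicate 1 and 2432 in replicate 2. Of the 6 plasmacytoid dendritic cell markers, 2 were read in both libraries, with sums of 413 and 484 TPM. Ccr9, which thymocytes express as well, made up 204 and 468 TPM of these sums. Siglech, their defining surface lectin, was at 0 in both. The others split, with Spib at 2946 and 0 counts, Pacsin1 at 2177 and 0, Bst2 at 1249 and 1, and Irf8 at 0 and 1010. Of 5 of these markers tested, 3 were past 4-fold toward replicate 1 and 1 toward replicate 2, and their part in the Tcf4 difference was not tested.

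Summed over the E protein genes, the level was 188 TPM in replicate 1 and 276 TPM in replicate 2 (232 ± 61.8 TPM, SD, n = 2), whereas the summed counts were 555 and 389 CPM. With 1 length per gene the sums were 218 and 130 TPM, so the direction of the difference in the E protein sum depended on the estimated lengths. The makeup of the sum differed more than its size. Tcf3 took 57.8% of it in replicate 1 and 1.04% in replicate 2. Tcf12 took 35.1% and 63.5%, and Tcf4 7.11% and 35.5%. In TPM the leading gene was thus Tcf3 in replicate 1 and Tcf12 in replicate 2, but with 1 length per gene Tcf12 led in both, at 102 TPM beside 95.4 TPM of Tcf3 in replicate 1.

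**Figure D2:**
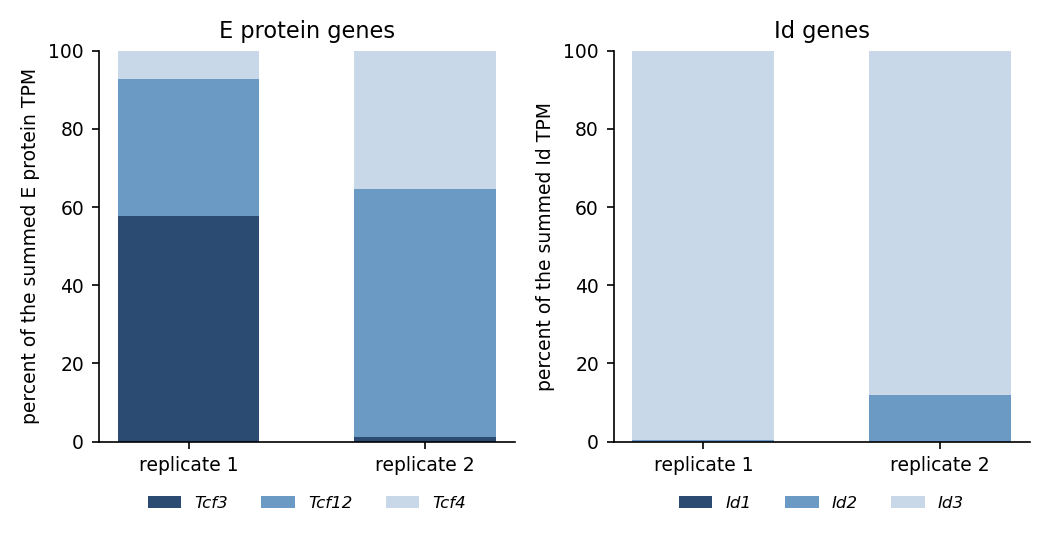
Share of each gene in the summed TPM of the E protein genes (left) and of the Id genes (right), in percent, for each library. The leading E protein gene was Tcf3 in replicate 1 (57.8%) and Tcf12 in replicate 2 (63.5%), while Id3 held 99.6% and 88.0% of the Id sum; with 1 length per gene Tcf12 led the E proteins in both libraries.

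Id3, on chromosome 4 from 136143497 to 136145755 on the plus strand, is the Id gene that pre-T-cell receptor and T-cell receptor signals induce in thymocytes. It was at 255 TPM in replicate 1 and 473 TPM in replicate 2, from 5589 and 11974 counts, with a mean of 364 ± 154 TPM (SD, n = 2). That placed it at rank 400 by mean TPM among mouse protein-coding genes, the highest rank of the 10. The coding transcript Id3-201 led in both libraries, with 80.3% and 84.5% of the gene's TPM. The remainder went to Id3-203, a transcript with a retained intron, at 50.3 and 73.4 TPM.

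Id2, on chromosome 12 from 25093799 to 25097140 on the minus strand, is the Id gene of innate lymphoid cells, natural killer cells and several dendritic cell types. It was at 1.05 TPM in replicate 1 and 64.7 TPM in replicate 2, from 25 and 1750 counts, with a mean of 32.9 ± 45.0 TPM (SD, n = 2). The gene has a single transcript in the deposited tables, so no estimated length entered this difference of 61.7 times. The 6 markers of natural killer and innate lymphoid cells summed to 36.8 TPM in replicate 1 and 6.31 TPM in replicate 2. Ncr1, Klrb1c, Eomes and Il2rb were at 0 in both libraries, so the sums rest on Klrd1, with 345 and 0 counts, and Gata3, which T cells express as well, with 991 and 454 counts. Macrophage and dendritic markers summed to 530 and 926 TPM, with 6 of 8 read in both and Itgax at 0. They split as well, with 2 past 4-fold toward each library: Adgre1 had 2630 and 0 counts and Csf1r 1051 and 1, while C1qc had 12 and 610 and Tyrobp 798 and 3801. The part of either cell group in the Id2 difference was not tested.

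Id1, on chromosome 2 from 152736251 to 152737410 on the plus strand, had 0 counts in both libraries. A count of 0 allows up to 3 counts, or 0.115 and 0.0940 CPM, a limit that covers counting error only. It was thus not detected in these libraries. The Id sum was 256 TPM in replicate 1 and 538 TPM in replicate 2 (397 ± 199 TPM, SD, n = 2), of which Id3 held 99.6% and 88.0% and Id2 0.409% and 12.03%. The ratio of the E protein sum to the Id sum in TPM was 0.735 in replicate 1 and 0.512 in replicate 2, a mean of 0.623 ± 0.157 (SD, n = 2). With 1 length per gene the ratio was 0.855 and 0.241. Both libraries therefore held more Id than E protein transcripts per length by either reckoning.

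Ikzf1 lies on chromosome 11 from 11685003 to 11772926 on the plus strand. Its transcripts either keep or skip an exon of 261 bases (87 codons) at chr11:11748311-11748571 that holds 1 of the zinc fingers with which Ikaros reads DNA. The protein of 515 codons encoded by Ikzf1-204 held 5 matches to the pattern of 2 cysteines and 2 histidines (or a last cysteine) searched, 1 of them wholly inside this exon. The exon is shown with the codons of those cysteines and histidines in capitals.
Ikzf1 zinc finger exon: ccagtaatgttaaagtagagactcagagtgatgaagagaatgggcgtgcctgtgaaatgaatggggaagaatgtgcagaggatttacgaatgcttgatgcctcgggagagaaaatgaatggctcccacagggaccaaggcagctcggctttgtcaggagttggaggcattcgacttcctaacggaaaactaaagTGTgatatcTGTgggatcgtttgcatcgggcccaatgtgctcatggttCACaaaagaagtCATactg

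Ikzf1 was at 139 TPM in replicate 1 and 129 TPM in replicate 2, from 10591 and 9586 counts. Its mean of 134 ± 7.11 TPM (SD, n = 2) had the smallest relative spread of the 9 factors read, an SD of 5.29% of the mean. The estimated length was 3820 bases in replicate 1 and 3311 bases in replicate 2, and the counts were 407 and 300 CPM. With 1 length per gene the levels were 151 and 119 TPM, a log2 ratio of -0.34 beside -0.35 for Tcf12. Ikzf1-204, which keeps the zinc finger exon, led in both libraries at 88.7 and 74.1 TPM. Transcripts that keep the exon held 63.7% of the gene's TPM in replicate 1 and 59.8% in replicate 2. Those that skip it held 36.3% and 27.0%, and the leading transcript among them differed. In replicate 1 it was Ikzf1-201, which encodes 428 codons, at 44.6 TPM, and this was at 0 in replicate 2. Ikzf1-202 was read in both libraries, at 5.49 and 23.1 TPM, and led the skipping transcripts in replicate 2. A further 13.2% in replicate 2 belonged to Ikzf1-206, a model of 242 bases from 56.3 counts, which covers neither junction. Ikzf1-203, which keeps the exon, was at 0.0749 and 3.15 TPM, and Ikzf1-205, of 446 bases, at 0.417 and 11.8 TPM. By counts, which do not weight short models up, transcripts keeping the exon had 86.7% and 93.9% of the reads.

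Ikzf3 encodes Aiolos, an Ikaros relative that rises as lymphocytes mature. It lies on chromosome 11 from 98464902 to 98546031 on the minus strand. It had 39 counts (2.50 TPM) in replicate 1 and 0 in replicate 2. Against a floor of 3 counts its CPM was at least 15.95-fold higher in replicate 1, a bound that covers counting error only. All 39 counts were assigned to Ikzf3-202, a noncoding transcript of 863 bases, so no read in either library was assigned to a coding Ikzf3 transcript.

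Runx1 lies on chromosome 16 from 92601466 to 92826149 on the minus strand and is read from a distal and a proximal promoter, whose proteins differ at the amino end. The transcript starts lie at 92826149 for Runx1-201 and 92697328 for Runx1-202. The first coding bases from each start are given below with the start codon in capitals, at chr16:92825617-92825646 and chr16:92695724-92695753. They are followed by the bases just upstream of each start, from the RefSeq promoter table (GRCm38.p6), at chr16:92826150-92826324 and chr16:92697330-92697579. All are shown because reads were assigned mainly to transcripts of the proximal start in replicate 1 and of the distal start in replicate 2.
Runx1 distal coding start: ATGgcttcagacagcatttttgagtcattt
Runx1 proximal coding start: ATGcgtatccccgtagatgccagcacgagc
Runx1 distal promoter: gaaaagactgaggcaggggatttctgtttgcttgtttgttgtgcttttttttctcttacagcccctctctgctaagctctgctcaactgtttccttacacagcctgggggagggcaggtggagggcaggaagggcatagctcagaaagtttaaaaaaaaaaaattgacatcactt
Runx1 proximal promoter: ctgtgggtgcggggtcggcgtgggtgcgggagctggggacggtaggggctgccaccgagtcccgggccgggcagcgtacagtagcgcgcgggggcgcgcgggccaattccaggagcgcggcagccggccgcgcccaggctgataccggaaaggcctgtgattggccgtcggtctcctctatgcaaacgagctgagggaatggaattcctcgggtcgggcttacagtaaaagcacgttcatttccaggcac
Each RefSeq promoter window runs from 250 bases before to 50 bases after the start, and the RefSeq distal start lies 75 bases inside that of Runx1-201, so the distal stretch is printed up to the outer start. The distal window had a GC content of 45% and the proximal window 69%, beside a median of 52.7% over 32851 promoters. The Runx motif TGTGGT or its reverse complement ACCACA was searched on both strands. It occurred in neither sequence before the start, where capitals would have marked it. The distal window held it at 2 places after the RefSeq start, in the stretch below at chr16:92826033-92826046, with the matches in capitals.
Runx1 after the distal start: ACCACAgaACCACA
Of all promoters 16.8% held the motif and 1.81% held it at 2 or more places.

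Runx1 was at 41.3 TPM in replicate 1 and 6.90 TPM in replicate 2, from 2282 and 790 counts, with a mean of 24.1 ± 24.4 TPM (SD, n = 2). Replicate 1 was 5.99 times higher in TPM, while its counts were 87.8 and 24.8 CPM. The estimated length was 2800 bases in replicate 1 and 5059 bases in replicate 2. Transcripts of the proximal start held 98.1% of the gene's TPM in replicate 1 and 42.2% in replicate 2. Transcripts of the distal start held 1.86% (12.3 counts) and 57.8% (531 counts). The distal form was thus assigned more reads in replicate 2 although the gene as a whole had fewer. Runx1-203, of the proximal start, led in replicate 1 at 24.3 TPM, and Runx1-201, of the distal start, led in replicate 2 at 3.98 TPM. Runx1-202, also of the proximal start, was at 5.30 and 2.08 TPM. The retained intron transcript Runx1-206 held 26.4% in replicate 1 and was at 0 in replicate 2.

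Myb lies on chromosome 10 from 21124935 to 21160984 on the minus strand. An extra coding exon of 357 bases (119 codons) at chr10:21144969-21145325 is kept in Myb-203, which encodes 755 codons, and skipped in Myb-201, which encodes 636. The junctions that tell these forms apart are shown as 60 bases of transcript each, 30 from either side, with bases of the extra exon in capitals.
Myb entry into the extra exon: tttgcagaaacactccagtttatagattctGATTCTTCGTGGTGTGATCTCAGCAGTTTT
Myb exit from the extra exon: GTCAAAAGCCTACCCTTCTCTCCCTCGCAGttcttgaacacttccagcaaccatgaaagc
Myb skipping junction: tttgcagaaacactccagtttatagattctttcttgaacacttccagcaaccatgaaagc

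Myb was at 204 TPM in replicate 1 and 90.7 TPM in replicate 2, from 14000 and 6959 counts, with a mean of 147 ± 79.9 TPM (SD, n = 2). The level in replicate 1 was 2.25 times that in replicate 2, and the estimated lengths of 3462 and 3422 bases were close. The share of the form with the extra exon was nearly the same in both libraries, at 67.1% and 67.0% of the gene's TPM, from 10040 and 5040 counts. Transcripts without the exon held 32.9% and 33.0%. Of the exon and start choices examined, that of Myb thus differed least between the libraries while the total of the gene differed. Myb-201 was at 66.7 and 24.6 TPM, and Myb-202, which retains an intron, was at 0.267 and 5.39 TPM.

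**Figure D3:**
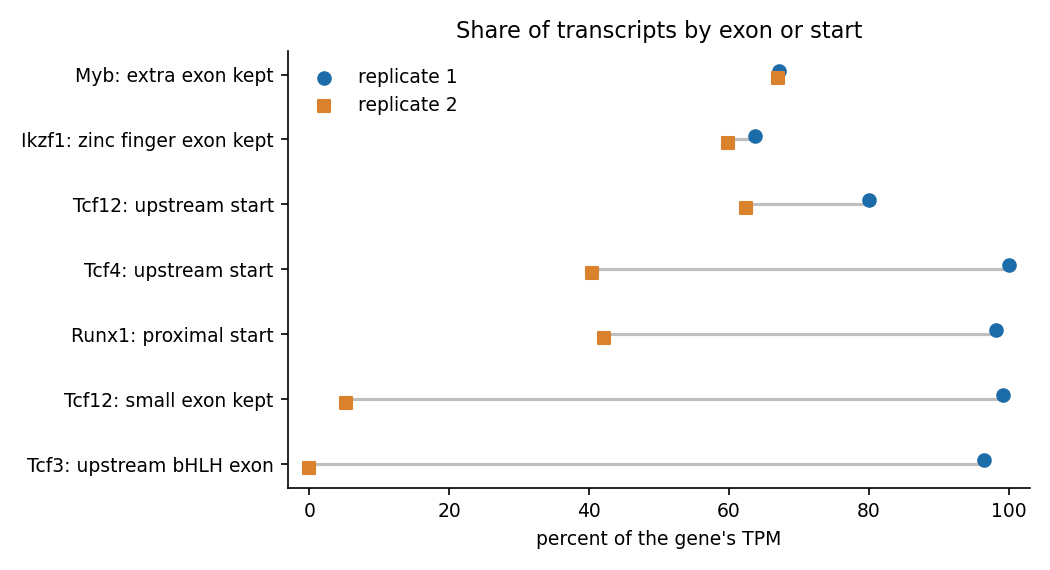
Share of the gene's TPM, in percent, held by transcripts with the named exon or start in each library. Myb (67.1% and 67.0%) and Ikzf1 (63.7% and 59.8%) had points close together, while Tcf3 (96.5% and 0%) and the small exon of Tcf12 (99.2% and 5.26%) spanned nearly the whole axis.

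A single leading transcript could be compared between libraries for 7 of the factors, those with several transcripts and at least 100 counts in each library. It was the same in 3 of the 7, Id3-201, Ikzf1-204 and Myb-203, while over 3825 genes under the same rule it was the same in 62%. These 3 and Tcf12 were the 4 factors with the highest mean counts. Over the 10 genes, 43 transcripts had at least 10 counts in either library, and 16 had them in both. Tcf12 had 13 such transcripts, more than any other of the 10 genes, and 3 of them were read at that level in both libraries.

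The 8 factors with a mean of at least 100 counts were set against the 4-fold line, a log2(TPM + 1) ratio of 2 in size. Tcf4 (log2 ratio 2.78) and Id2 (5.00) lay past it toward replicate 2, and Tcf3 (-4.83) and Runx1 (-2.42) toward replicate 1. Thus 4 of 8 were past the line, beside 50.9% of the 9341 mouse genes tested, with 29.4% of genes higher in replicate 2 and 21.5% higher in replicate 1. The share of factors past the line was near that of all genes. The other 4 ratios were 1.39 for Tcf12, 0.89 for Id3, -0.11 for Ikzf1 and -1.16 for Myb. The median size of the log2 ratio was 1.91 over the factors and 2.07 over all genes tested.

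Over all genes the share past 4-fold was lower where counts were higher. From 100 to 1000 mean counts, 77.5% of genes were past 4-fold, and Id2, the factor in that range, was as well. From 1000 to 3000 counts, 50.7% of genes were, along with Tcf3 and Runx1. From 3000 to 10000 counts the share was 18.6%, and Tcf4 was past the line while Tcf12 and Id3 were not. From 10000 to 30000 counts it was 2.43%, and neither Ikzf1 nor Myb was past it. In that last range the median size of the log2 ratio was 0.46 over all 371 genes, with Ikzf1 below it and Myb above it.

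**Figure D4:**
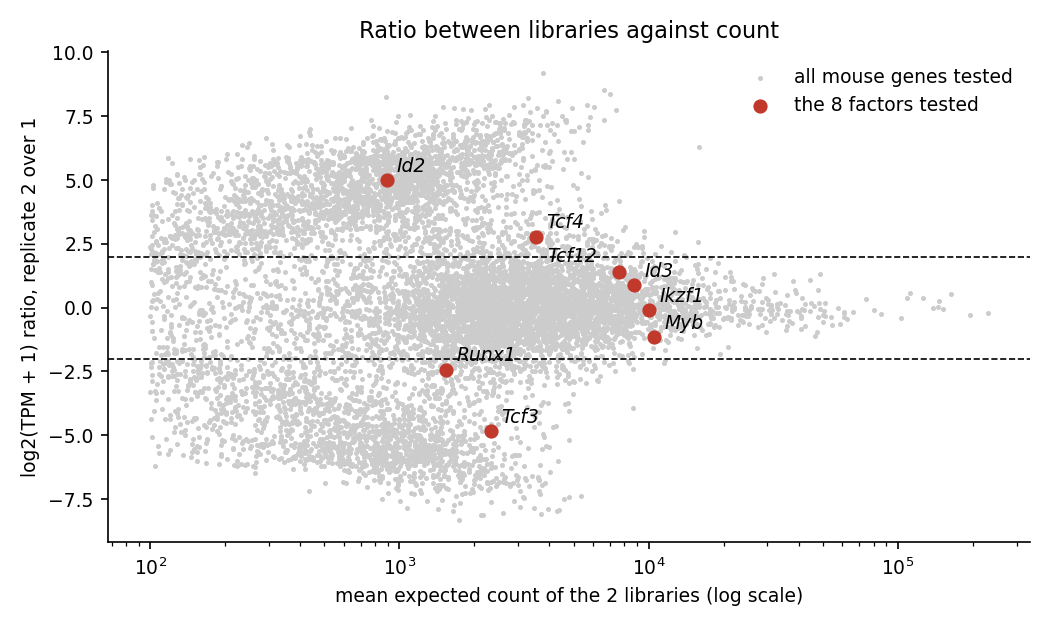
Log2(TPM + 1) ratio of replicate 2 over replicate 1 against the mean expected count (log axis) for the 9341 mouse genes tested (grey) and the 8 factors tested (red). Dashed lines mark 4-fold; Id2 and Tcf4 lie above them and Tcf3 and Runx1 below, while Tcf12 is drawn above 0 in TPM but was lower in replicate 2 by counts.

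Where the estimated length of a gene differed between libraries, the ratio in TPM and the ratio in counts differed too. With 1 length per gene, the log2 ratio of Tcf12 was -0.35, that of Tcf4 was 1.15 and that of Runx1 was -1.62, so that 2 of 8 factors, Tcf3 (-4.51) and Id2 (4.99), remained past 4-fold, beside 51.6% of all genes tested. With counts scaled by edgeR TMM factors the same 2 were past it, beside 52.8% of all genes. The share of factors past the line was thus near that of all genes by TPM and below it under these scalings. These shares are not matched for counts, and most of the factors lay in the count ranges where fewer genes were past 4-fold. Of 6822 mouse genes with a mean of at least 100 counts and some in each library, 6.71% had opposite directions in TPM and in CPM, as Tcf12 did. Of the 8 factors tested, Tcf12 alone changed sign under any scaling tried.

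**Figure D5:**
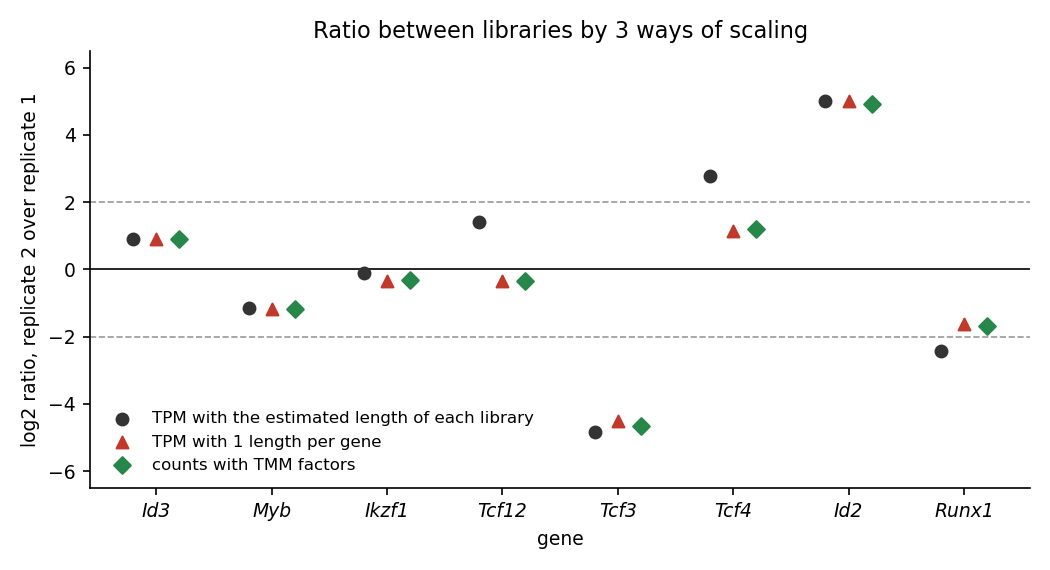
Log2 ratio of replicate 2 over replicate 1 for the 8 factors tested, by TPM with each library's own estimated length, by TPM with 1 length per gene, and by counts with TMM factors. Dashed lines mark 4-fold; Tcf12 is at 1.39 by TPM and at -0.35 with 1 length, and Tcf4 and Runx1 lie past 4-fold by TPM alone.

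Among 14 partners and cofactors of the E proteins, 7 were read in both libraries, 3 in 1 and 4 in neither. Those in neither were Tal1, Tal2 and Lyl1, class II bHLH genes whose ectopic expression drives T-cell leukaemia, and Lmo1, which encodes a LIM protein of the same complex. The most abundant were the acetyltransferase gene Crebbp at 21.1 and 50.9 TPM, the corepressor gene Cbfa2t3 at 41.4 and 28.2 TPM, Ldb1, which encodes a LIM-binding adaptor, at 20.5 and 40.8 TPM, and Ascl2. Ascl2, a bHLH gene, had 0 counts in replicate 1 and 1134 in replicate 2, and Id4, the remaining Id gene, 42 and 0. Of 6 tested, 2 were past 4-fold, both higher in replicate 2.

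Of 16 Ikaros relatives and NuRD subunits, 14 were read in both libraries and 2 in 1, and 3 of 14 tested were past 4-fold. The histone-binding subunit gene Rbbp4 was at 271 and 269 TPM, Rbbp7 at 78.6 and 199 TPM, the deacetylase gene Hdac1 at 241 and 98.4 TPM, and Mta3 at 172 and 105 TPM. Among the remodelling ATPases, Chd4 was at 11.9 and 157 TPM, whereas Chd3 had 1099 counts in replicate 1 and 0 in replicate 2. Ikzf2, which encodes Helios, was at 42.0 and 0.374 TPM. Of the genes named here, Rbbp4 alone was as close between the libraries in TPM as Ikzf1.

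Of 9 relatives and cofactors of Runx1 and Myb, 3 were read in both libraries, 3 in 1 and 3, Runx2, Tle2 and Mybl1, in neither, and 4 of 5 tested were past 4-fold. Cbfb, the partner of Runx proteins, was at 65.4 and 36.5 TPM, above Runx1 in both libraries. Runx3, the Runx gene of the CD8 lineage, was at 3.23 and 19.8 TPM, lower than Runx1 in replicate 1 and higher in replicate 2. The Groucho corepressor gene Tle3 was at 77.8 and 3.77 TPM, while Tle4 had 0 and 2088 counts. Mybl2, the Myb relative of cycling cells, had 1828 counts in replicate 1 and 0 in replicate 2.

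All 12 genes listed as known targets of these factors in thymocytes were read in at least 1 library and 10 in both. Cd8a was at 231 and 300 TPM, Rag1 at 118 and 221 TPM, and Bcl2l1, a survival gene, at 79.3 and 287 TPM. Ptcra, the pre-T-cell receptor alpha gene activated by E proteins, was at 71.1 and 57.0 TPM. The early genes Gfi1 and Il7r had 0 counts in replicate 1 and 45 and 80 in replicate 2. No count of these lists is read as particular to it, since 50.9% of all genes tested were past 4-fold.

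Markers of the other cells of the thymus gave these values beside the factors. Thymic epithelial markers summed to 2988 and 2955 TPM with 7 of 8 read in both, mesenchymal markers to 1570 and 1335 TPM with 7 of 8, and endothelial markers to 373 and 165 TPM with 4 of 8 and Kdr and Emcn at 0. B-cell markers summed to 0 and 58.3 TPM, nearly all of it Cd79b, with Pax5 at 0 in both. Erythroid markers, mostly globins, summed to 3527 and 9132 TPM. The T-lineage sum, most of it Trbc1 and Trbc2, was close in both libraries, though Thy1 was at 160 and 49.2 TPM. Tcf3, Tcf4, Id2 and Runx1 were not close in TPM. The T-lineage markers had higher mean counts than these factors, and over all genes fewer were past 4-fold at higher counts. The part of other cell types in the differences of these factors was not tested.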

How the data were processed

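Per the deposited text notes, the authors processed the reads on mm10 with GENCODE annotation M4; the sources used here give neither the aligner nor the counting program. The authors deposited expected counts, TPM and posterior means for each gene and transcript (1 library per table), and per the file headers the percent of each gene's TPM per transcript. Effective lengths are 99 bases below the length.

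TPM was rescaled over the 43346 mouse genes. Symbols, positions and exons came from GENCODE M21 (GRCm38), in which 42462 identifiers were matched and 884 were not. Of the 43 transcripts named by the minimum of 10 counts, 36 have the same length in the file and in M21. Those more than 10 bases apart are Myb-201, Tcf4-204, Tcf4-205, Tcf4-207 and Tcf4-210, so the Tcf4 starts rest mostly on models whose length changed. Percentages of TPM per exon or start sum over transcripts and rest on the program's split of reads. Ratios are log2(TPM + 1), replicate 2 over replicate 1, for genes with a mean of at least 100 counts; expected counts were rounded for edgeR and DESeq2. With 1 group of 2 libraries nothing was tested. The ratio script was tested on simulated data.

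The members and lists were chosen with earlier results of these data known. Named were all members, their transcripts with 10 or more counts, and from each list the 4 genes of highest mean TPM, any with at least 10 counts in a library and 0 in the second, and, chosen after their values were seen, Ikzf2, Chd4, Ptcra and the genes read in neither library. Some values are not reported here. Likeness of pattern was not ranked, since over 2 libraries any pair of genes correlates fully. Tools were Python 3.11.15, pandas 2.3.3, matplotlib 3.10.9, Biopython 1.88, R 4.3.3, edgeR 4.0.16 and DESeq2 1.42.0.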

Additional observations from a re-analysis of the deposited data

How the results depend on the processing

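With 2 libraries and no test, these settings show only how far values move. The number of factors at least 4-fold apart was 4 and became 2 with an 8-fold line, with TMM factors, with DESeq2 size factors, with spike-in scaling and with 1 effective length per gene, a setting chosen after seeing the data. The share of all genes past the line was 50.9% and became 41.0% with the 8-fold line, 52.8%, 52.8% and 52.7% under the 3 count scalings in that order, and 51.6% with 1 length. The log2 ratio of Tcf12, 1.39 in TPM, was -0.34, -0.30 and -0.26 with counts scaled by TMM factors, size factors and spike-ins and -0.35 with 1 length. In the same order the log2 ratio of the E protein sum, 0.55 in TPM, was -0.40, -0.36, -0.32 and -0.75. Counts are not divided by a length, and the setting with 1 length divides both libraries by the same length for each gene. Summed counts also give longer transcripts more weight in the E protein sum. The ratios of Tcf4 and Runx1 kept their direction and fell inside 4-fold under the 3 count scalings and with 1 length, and Runx1 also with a pseudocount of 10 TPM (-1.60). In the other settings the E protein sum, the Id sum and their ratio moved by less than the SD of the 2 libraries. The 8 factors read in both libraries and the 3 shared leading transcripts stayed within 1.5 times. These settings were posterior means, TPM as deposited, without mitochondrial genes, coding transcripts only, higher count minimums and thinning of the deeper library. An SD of 2 libraries this far apart is a loose mark. With coding transcripts only, the E protein sum was 172 TPM beside 232 TPM, and the Id sum 335 TPM beside 397 TPM. That setting drops transcripts without rescaling, so those sums could only fall. The ratio of the E protein sum to the Id sum could not move with TPM as deposited or without mitochondrial genes. Each of these settings multiplies all levels of a library by the same factor. From each library alone the E protein sum, the Id sum and their ratio were 188 to 276 TPM, 256 to 538 TPM and 0.512 to 0.735. Leading transcripts in each library alone give no count to compare. No paired analysis was possible because there was 1 group. Id1 and Ikzf3 were at or near 0 counts, and what limits them was not tested.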
